A study of Mus musculus with 8 samples.

Results

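Kit, Kitl, Met and Hgf, the genes of 2 receptor tyrosine kinases and their ligands, were followed in melanocytes and the other cells of mouse skin, with and without ultraviolet light. They were chosen by name as 4 of the 24421 genes in the deposited table, and all 4 passed the filter on low values. All mice were C57BL/6J and carried both the ROSA mTmG reporter and Tyr:CreERT2. With this reporter a cell has tdTomato in its membrane at first, and EGFP in its place once Cre has recombined the reporter. Tyr:CreERT2 is a tamoxifen-dependent Cre driven by tyrosinase regulatory sequence, so the EGFP label depends on where that sequence is active and on how completely Cre acted. Every mouse had tamoxifen for 10 days from day 21 and was shaved and depilated on day 50, controls included. After that 2 mice had UVB at 150 mJ/cm2 for 3 days and 2 mice had a mock treatment with normal light, and back skin was taken on day 54. EGFP+ and tdTomato+ cells were sorted from each mouse, which gave 8 libraries in 4 groups of 2. The no UV replicates 1 and 2 come from mice 1 and 2, and the UV replicates from mice 3 and 4.

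KIT is the receptor for KIT ligand (stem cell factor, from Kitl). Melanocytes and their precursors need it for migration, survival and growth, and keratinocytes and fibroblasts of the skin are known sources of the ligand. MET is the receptor for hepatocyte growth factor (from Hgf), which mesenchymal cells release as an inactive precursor. Epithelial cells and melanocytes both carry MET. The receptors act through shared routes, chiefly the RAS-ERK and PI3K-AKT pathways.

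The sorted populations matched their labels. The 7 melanocyte markers (Tyr, Dct, Mlana, Pmel, Tyrp1, Slc45a2 and Sox10) summed to 522102 to 609623 normalized reads in EGFP+ libraries and 2362 to 44299 in tdTomato+ libraries. Basal keratinocyte markers summed to 273 to 472 in EGFP+ and 153260 to 206459 in tdTomato+ libraries. A normalized read is a read count divided by the size factor of its library. Libraries held 11186363 to 16711981 reads. Mouse 1 stood apart: its libraries had 477 and 1103 reads of Xist and at most 9 of 4 Y-linked genes, where the other mice had at most 4 and at least 2253. Such reads differ by sex, which the labels do not give. Mouse 1 is in the no UV arm, where sex and mouse cannot be told apart, and the UV arm held no such mouse. Results are given without mouse 1 where that ends a call. Of 18070 genes tested over all mice, 1746 were higher and 3471 lower in EGFP+ cells. The split was 2857 and 2672 under quantile normalization and 2655 and 2895 after rescaling without the 20 most abundant genes, which moved the median log2 difference of all genes by 0.45 and 0.21. Without UV the split was 1206 and 2262, against 2013 and 1909 or 1804 and 1806. With UV it was 909 and 2331, against 1378 and 1674 or 1285 and 2011.

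Kit lies at 75574916 to 75656722 and Hgf at 16553495 to 16620152 of chromosome 5, Met at 17463800 to 17573980 of chromosome 6 and Kitl at 100015630 to 100100416 of chromosome 10 (GRCm38, plus strand). All 4 are protein coding, and the values give 1 number per gene, so isoforms, such as the membrane-bound and shed forms of KIT ligand, are not told apart. Their merged exons are 5253, 3583, 6809 and 5648 bases long for Kit, Hgf, Met and Kitl. The stretch of 250 bases before the RefSeq start is printed for Kit and Kitl, which had opposite patterns, and for Met, which was present in both populations. The gene positions above are from GENCODE, and each printed window ends past the GENCODE start, so part of it lies inside the GENCODE gene. Distances of motifs are counted from the RefSeq start. Capitals mark matches to 5 short motifs, searched on both strands. The symmetric E-box CACGTG is of the kind that MITF binds. Its variant with the letters CATGTG is another MITF box. The AP-1 motif was searched as TGANTCA, where N is any base. The core of a GC box was searched as GGGCGG and the TATA box as TATAAA.
Kit promoter, chr5:75574737-75574986: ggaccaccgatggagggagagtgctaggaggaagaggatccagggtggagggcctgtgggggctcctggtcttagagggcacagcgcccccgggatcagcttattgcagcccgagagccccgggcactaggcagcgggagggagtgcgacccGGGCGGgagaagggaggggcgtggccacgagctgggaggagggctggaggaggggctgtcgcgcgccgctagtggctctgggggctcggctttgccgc
Kitl promoter, chr10:100015571-100015820: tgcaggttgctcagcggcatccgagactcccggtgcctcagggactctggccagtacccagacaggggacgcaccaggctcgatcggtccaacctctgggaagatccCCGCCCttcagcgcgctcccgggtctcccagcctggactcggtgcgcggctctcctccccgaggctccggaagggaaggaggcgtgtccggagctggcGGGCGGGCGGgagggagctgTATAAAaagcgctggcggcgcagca
Met promoter, chr6:17463707-17463956: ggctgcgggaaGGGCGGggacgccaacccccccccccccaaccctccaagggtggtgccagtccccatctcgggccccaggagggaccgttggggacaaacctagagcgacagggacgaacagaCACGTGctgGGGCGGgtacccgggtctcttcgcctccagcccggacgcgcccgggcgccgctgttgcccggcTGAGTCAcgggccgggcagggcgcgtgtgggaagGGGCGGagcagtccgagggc
The Met window held a CACGTG 126 bases before the start, and such a motif is in 7.15% of 32851 promoter windows of 300 bases (250 before and 50 after the start). It also held a TGANTCA at 54 bases before the start, found in 7.81% of windows, and 3 GGGCGG matches, a motif found in 35.7% of windows. The Kit window held 1 GGGCGG and neither E-box. The Kitl window held 3 GGGCGG, of which 2 overlap each other, and a TATAAA 25 bases before the start, found in 13.6% of windows. In the first of 2 Hgf windows a CATGTG lay on the minus strand 19 bases before the start, a motif in 14.2% of windows, and the second window held none of the 5. Over the whole windows of 300 bases, guanine and cytosine made up 69% for Kit, 75.7% for Met, 68.7% for Kitl and 51.3% for either Hgf window. A match describes the letters of a window, and the libraries measure no binding there.

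The receptor and its ligand were on opposite sides for KIT: Kit was high in EGFP+ cells and Kitl in tdTomato+ cells, in every mouse. Hgf was also on the tdTomato+ side, at a low level, while Met was present in both populations. Over all mice 3 of the 4 genes differed between populations (Kit higher, Kitl and Hgf lower), where 28.9% of all genes tested did. By direction the background was 9.66% higher and 19.2% lower. Hgf had no read in EGFP+ cells and passed the filter only through tdTomato+ cells, so it could be called only as lower. The 4 genes were also chosen with earlier results of these data known, so this count is a description.

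**Figure D1:**
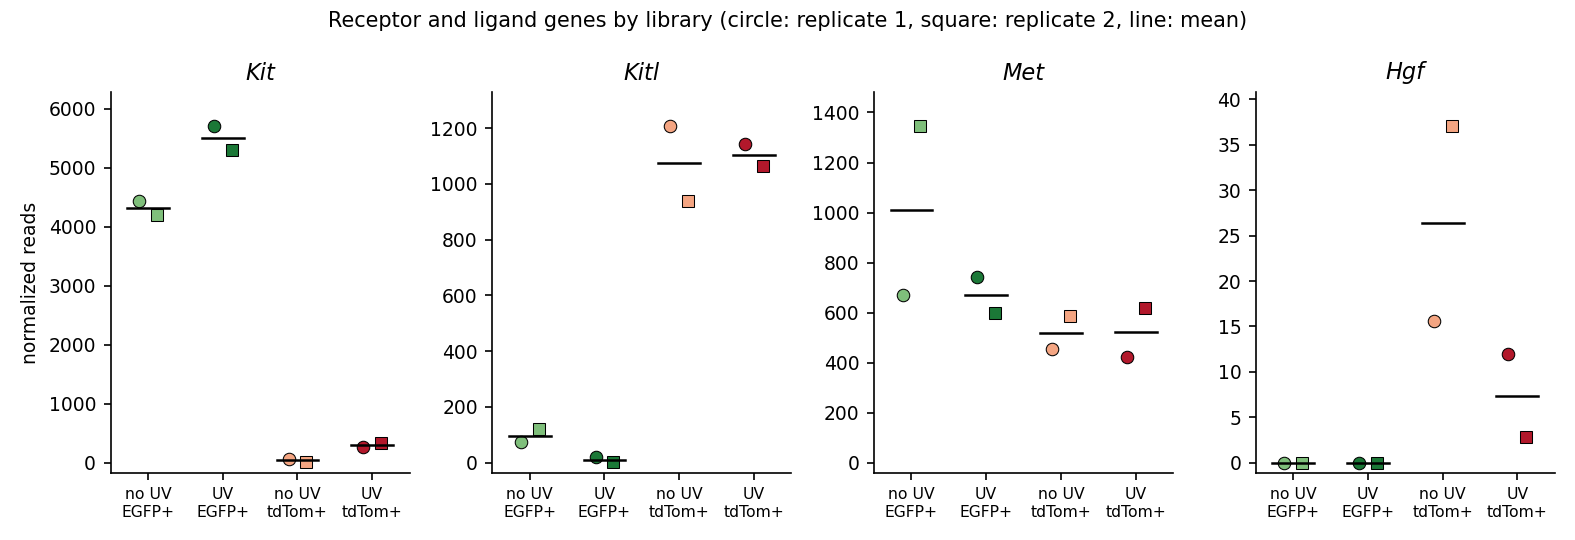
Normalized reads of Kit, Kitl, Met and Hgf (vertical axes, linear, a scale of its own for each gene) in the 4 groups, with a circle for replicate 1, a square for replicate 2 and a line at the mean of 2. Kit is at 4202 or more in every EGFP+ library and at 328 or less in every tdTomato+ library, Kitl shows the opposite order, Met has points from both populations near 600, and Hgf is at 0 in all EGFP+ libraries.

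Kit encodes the KIT receptor. In EGFP+ cells it stood at 4429 and 4202 normalized reads without UV and at 5712 and 5297 with UV. In tdTomato+ cells it stood at 57.7 and 17.1 without UV and at 264 and 328 with UV. The lowest EGFP+ library was above the highest tdTomato+ library by an order of magnitude, so the populations did not overlap. Over all mice Kit averaged 4910.2 ± 713 (SD, n = 4) in EGFP+ and 167 ± 153 (n = 4) in tdTomato+ cells. The log2 difference was 5.63 ± 0.34 (SE, 95% interval 4.86 to 6.41, limma adjusted p = 1.16e-05). In the authors' deposited table the Kit log2 fold change is 4.74 with an adjusted p of 2.13e-11. The difference was 7.05 ± 0.48 without UV (adjusted p = 5.43e-05, where 19.2% of genes were called, 6.67% higher and 12.5% lower) and 4.22 ± 0.48 with UV (adjusted p = 0.000807, where 17.9% were called, 5.03% higher and 12.9% lower). Kit was thus called in each arm.

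Met encodes the receptor for hepatocyte growth factor. In EGFP+ cells it stood at 672 and 1347 normalized reads without UV and at 741 and 600.3 with UV. In tdTomato+ cells it stood at 453 and 587 without UV and at 423 and 618 with UV. The populations overlapped: the lower UV EGFP+ library was under the higher UV tdTomato+ library, and no UV EGFP+ replicate 2 was far above all others. Within a mouse the ratio of EGFP+ to tdTomato+ was 1.48, 2.30, 1.75 and 0.972 for mice 1 to 4. Met averaged 840.1 ± 343 in EGFP+ and 520.1 ± 96.3 in tdTomato+ cells (SD, n = 4 each). The log2 difference was 0.63 ± 0.27 (95% interval 0.02 to 1.25) and did not pass the adjusted threshold (limma adjusted p = 0.116). It passed after rescaling without the 20 most abundant genes (0.89, limma adjusted p = 0.0402). In the authors' deposited table Met has a log2 fold change of 0.69 with an adjusted p of 0.0918. Neither arm gave a call: the difference was 0.88 ± 0.38 without UV (95% interval 0.02 to 1.75, limma adjusted p = 0.153) and 0.38 ± 0.38 with UV (95% interval -0.48 to 1.25, adjusted p = 0.558).

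Kitl encodes the ligand of KIT. In tdTomato+ cells it stood at 1209 and 938 normalized reads without UV and at 1142 and 1063 with UV. In EGFP+ cells it stood at 74.0 and 121 without UV and at 19.3 and 1.08 with UV. All tdTomato+ libraries lay above all EGFP+ libraries, and the UV libraries were the lowest of the EGFP+ side. Kitl averaged 1088 ± 117 in tdTomato+ and 53.8 ± 54.3 in EGFP+ cells (SD, n = 4 each), a log2 difference of -5.44 ± 0.65 (95% interval -6.92 to -3.96, limma adjusted p = 0.00042). Without mouse 1 the difference was -5.18 and not called (limma adjusted p = 0.092). In the authors' deposited table the Kitl log2 fold change is -4.17 with an adjusted p of 8.25e-07. Without UV it was -3.48 ± 0.91 (95% interval -5.57 to -1.39, limma adjusted p = 0.0306). That call was lost in 6 of the 8 fits that leave out 1 library, held when either UV EGFP+ library was the one left out, and its adjusted p reached 0.232 (without no UV EGFP replicate 1). It was also lost with a pseudocount of 0.1 (limma adjusted p = 0.076), with no trend in the moderation (0.0859) and without mouse 1 (0.458). With UV it was -7.41 ± 0.91 (95% interval -9.50 to -5.32, adjusted p = 0.00119), lost without UV tdTomato replicate 1 (0.055), with only the libraries compared (0.1) and without mouse 1 (0.102).

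Hgf encodes the ligand of MET. It had 0 reads in every EGFP+ library and 58 in the 4 tdTomato+ libraries together, 42 without UV and 16 with UV. In tdTomato+ cells it stood at 15.6 and 37.1 normalized reads without UV and at 11.9 and 2.78 with UV. All tdTomato+ libraries were above 0, and their range was wide in both arms. Taking 3 reads over the EGFP+ group as the most that a count of 0 allows, Hgf was at least 21.7-fold lower in EGFP+ cells over all mice, 18.3-fold without UV and 5.21-fold with UV. This bound covers counting error only. limma called Hgf over all mice (adjusted p = 0.00444) and without UV (0.0127), and not with UV (0.0892). The call without UV was lost in 3 of the 8 fits that leave out 1 library, those without either no UV EGFP+ library (0.0705 and 0.0819) or without the replicate 2 of no UV tdTomato (0.0532), and also without mouse 1 (0.0985) and in edgeR (0.0787). In the authors' deposited table Hgf has a log2 fold change of -6.43 with an adjusted p of 0.000512.

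Levels of different genes can be compared only per length, as normalized reads per kilobase of merged exon. In EGFP+ cells the order was Kit (935 ± 136, SD, n = 4), Met (123 ± 50.4), Kitl (9.52 ± 9.62) and Hgf (0). Neighbours in that order did not overlap, with Kit at 800.0 to 1087, Met at 88.2 to 198 and Kitl at 0.191 to 21.4. In tdTomato+ cells the order was Kitl (193 ± 20.6), Met (76.4 ± 14.1), Kit (31.7 ± 29.0) and Hgf (4.71 ± 4.06). There Kitl (166 to 214) stood clear of Met (62.2 to 90.7). Met and Kit (3.26 to 62.5) overlapped at the edge of their ranges, and Kit overlapped Hgf (0.776 to 10.4). EGFP+ cells thus had more Kit than Met per length in all 4 libraries, and tdTomato+ cells had more Kitl than Hgf in all 4.

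**Figure D2:**
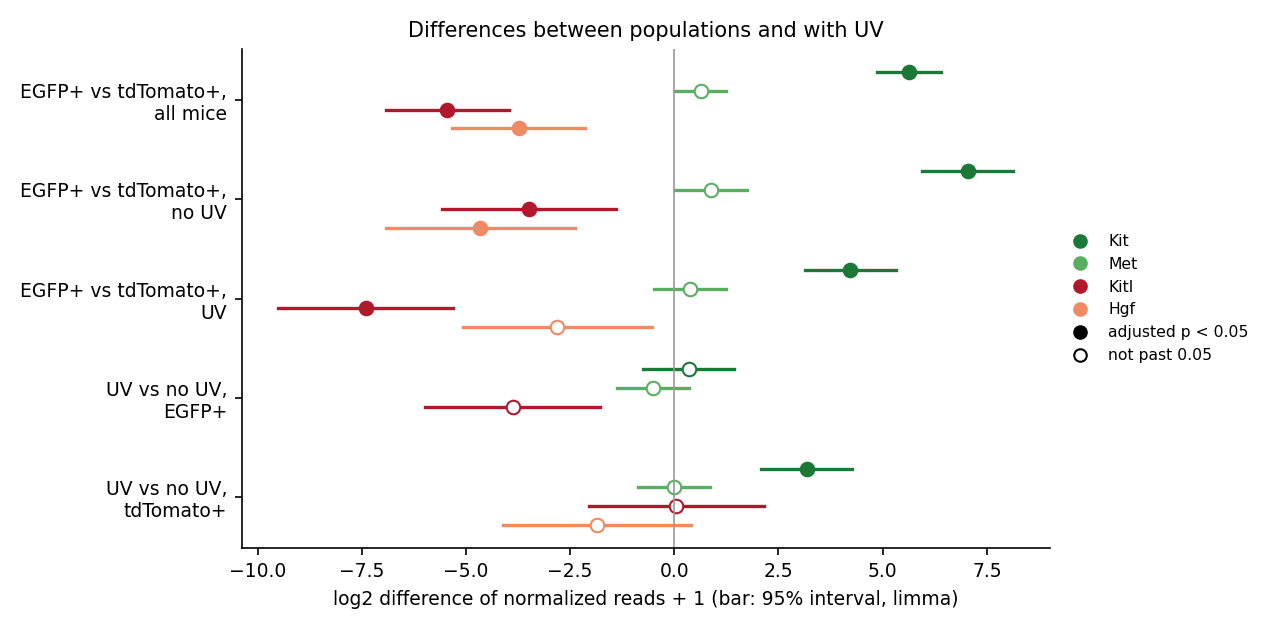
Log2 differences of normalized reads + 1 (horizontal axis) for the 4 genes in 5 comparisons, with 95% limma intervals as bars, filled points for an adjusted p under 0.05 and open points otherwise. Kit is filled on the right in the 3 population comparisons and in tdTomato+ cells with UV, Kitl is filled on the left in the population comparisons, and Met is open throughout.

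The UV comparison asked whether these receptors and ligands differed after UVB within a sorted population. In tdTomato+ cells Kit rose with UV and none of the other 3 passed the test. In EGFP+ cells none of the 3 genes with reads there passed it. In that EGFP+ comparison 3 of 18070 genes were called at all (0.0166%), with 1875 at an unadjusted p under 0.05, while edgeR called 120 and DESeq2 355. In tdTomato+ cells 101 genes were called (0.559%, with 0.349% higher and 0.21% lower). For the difference between the UV changes of the 2 populations 1 gene was called (0.00553%), with 75 by edgeR and 286 by DESeq2.

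Kit averaged 37.4 ± 28.7 normalized reads in tdTomato+ cells without UV and 296 ± 45.5 with UV (SD, n = 2 each), and the groups did not overlap. The log2 difference was 3.18 ± 0.48 (95% interval 2.09 to 4.27, limma adjusted p = 0.0356). This call was lost in 6 of the 8 fits that leave out 1 library, kept only when either no UV tdTomato+ library was the one left out, and the adjusted p reached 0.271 without UV tdTomato replicate 2. It was also lost when limma used the tdTomato+ libraries alone (adjusted p = 0.234), with a pseudocount of 0.1 (0.0765) and with no trend in the moderation (0.113), at a difference of 3.18 to 3.22. In EGFP+ cells Kit averaged 4316 ± 160 without UV and 5505 ± 293 with UV (n = 2 each), and both UV libraries lay above both others. That difference was 0.35 ± 0.48 (95% interval -0.74 to 1.44, limma adjusted p = 0.866). The UV change in EGFP+ minus that in tdTomato+ cells was -2.83 ± 0.68 (95% interval -4.37 to -1.28, limma adjusted p = 0.265). This difference of changes was called by edgeR (-2.60, adjusted p = 0.0244) and DESeq2 (-2.59, 0.000933), and by limma without no UV tdTomato replicate 1 (-3.68, 0.00283) or without mouse 1 (-3.64, 0.02).

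Melanocyte markers moved with Kit in tdTomato+ libraries. Their sum was 5416 and 2362 normalized reads without UV and 22905 and 44299 with UV, with 0 of the 7 genes at 0 in any library. As a share of the EGFP+ value of the same mouse, Kit in tdTomato+ cells was 1.30% and 0.408% in mice 1 and 2 and 4.62% and 6.20% in mice 3 and 4. The median share of the 7 melanocyte markers was 1.19%, 0.465%, 4.29% and 7.26% in the same mice. In each mouse the Kit share lay within the range of the 7 markers, which was 0.571% to 1.94%, 0.174% to 0.917%, 2.52% to 5.92% and 4.996% to 7.78%. Per 100 normalized reads of the 7 markers there were 0.721 to 1.15 normalized reads of Kit in the 8 libraries, and the ranges of the EGFP+ and tdTomato+ libraries overlapped. Set against Tyr alone, Kit was lowest in no UV tdTomato+ libraries (0.123 and 0.0876). That ratio was 0.226 and 0.132 in UV tdTomato+, 0.183 and 0.197 in no UV EGFP+, and 0.233 and 0.152 in UV EGFP+ libraries. In bulk samples a change in the number of cells of a type and a change in RNA per cell cannot be told apart.

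Mast cells are the other skin cells known for KIT. The 8 mast cell markers summed to 2.93 and 12.8 normalized reads in tdTomato+ cells without UV and to 82.5 and 35.2 with UV, and to at most 1.90 in any EGFP+ library. Cma1, the mast cell chymase, had 0 reads in both no UV tdTomato+ libraries and 42 and 34 with UV. Hdc, the enzyme that makes histamine, had 48 reads in UV tdTomato replicate 1 and 0 in UV tdTomato replicate 2. Mcpt4, Tpsb2 and Fcer1a were at 0 in every library, and in each tdTomato+ group 4 of the 8 markers were at 0. The part of melanocytes or mast cells in the Kit result was not tested.

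**Figure D3:**
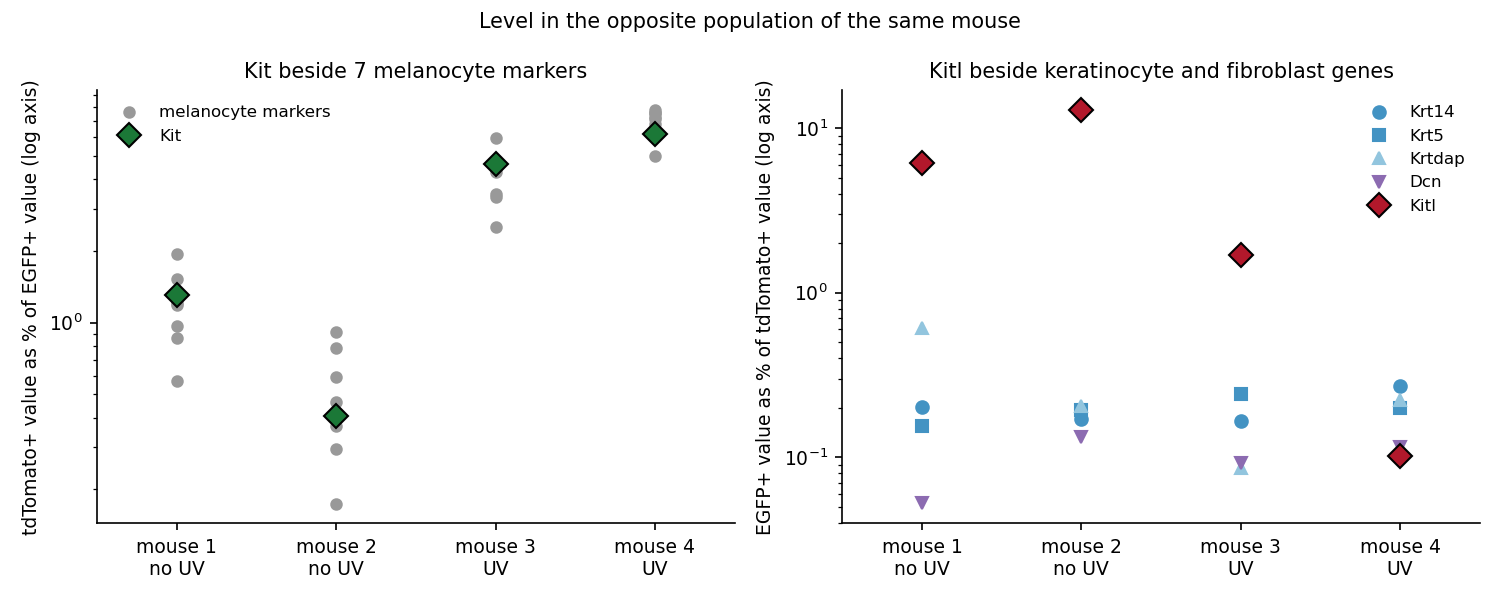
Left, the tdTomato+ value as a percentage of the EGFP+ value of the same mouse (log axis) for Kit (diamonds) and 7 melanocyte markers (grey points). Right, the EGFP+ value as a percentage of the tdTomato+ value (log axis) for Kitl and 4 keratinocyte or fibroblast genes (Krt14, Krt5, Krtdap and Dcn). Kit lies among the melanocyte markers in all 4 mice, and Kitl lies above the 4 genes plotted with it in mice 1 to 3 and at 0.101% in mouse 4. Some keratinocyte and fibroblast genes that are not plotted had a larger share than Kitl in some mice.

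Kitl in tdTomato+ cells averaged 1073 ± 192 without UV and 1102 ± 55.9 with UV (SD, n = 2 each), and the groups overlapped. The log2 difference was 0.05 ± 0.91 (95% interval -2.04 to 2.14, limma adjusted p = 1), an interval that leaves room for a change of several fold in either direction. In EGFP+ cells Kitl was 97.4 ± 33.0 without UV and 10.2 ± 12.9 with UV (n = 2 each), with no overlap. The UV EGFP+ replicate 2, the lowest for Kitl, had reads of 11186 genes, where the other 7 libraries had 14503 to 17076, and the part of this in the Kitl values was not tested. That difference of -3.88 ± 0.91 (95% interval -5.97 to -1.79) did not pass in limma (adjusted p = 0.231). It did pass in edgeR (-3.20, adjusted p = 0.0285), in DESeq2 (-3.20, 0.000251) and in limma without UV EGFP replicate 1 (-5.52, 0.00255). The UV change in EGFP+ minus that in tdTomato+ cells was -3.93 ± 1.29 (95% interval -6.89 to -0.97, limma adjusted p = 0.389), called by DESeq2 (-3.24, adjusted p = 0.0181) and by limma without UV EGFP replicate 1 (-5.57, 0.0128).

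Keratinocyte and fibroblast genes were set beside Kitl in EGFP+ cells, as a share of the tdTomato+ value of the same mouse. Kitl was at 6.12%, 12.9%, 1.69% and 0.101% in mice 1 to 4. Krt14, a keratin of the basal epidermis, was at 0.201%, 0.171%, 0.166% and 0.269%, and Dcn, a fibroblast proteoglycan, at 0.0522% to 0.132%. Other genes of these cell types varied widely between mice, with the fibroblast gene Col3a1 at 3.78%, 2.57%, 0.535% and 0% and Krt1, a suprabasal keratin, at 0.241%, 0.0718%, 7.76% and 19.4%. In EGFP+ libraries the sums of 4 basal keratinocyte markers were 273 and 354 without UV and 345 and 472 with UV, with 0 of the 4 genes at 0. The 6 macrophage and dendritic markers summed to 419 and 210 without UV and to 98.2 and 6.47 with UV, and the 5 dermal papilla markers to 24.1 and 20.9 without UV and to 6.71 and 1.08 with UV, in the direction of Kitl. The 5 pericyte and smooth muscle markers summed to 4.99 and 42.8 without UV, and to 0.839 and 0 with UV, where 4 of the 5 had no read in either library. The 6 fibroblast markers were at 166 and 141 without UV and at 10.1 and 246 with UV. The part of these cells in the Kitl values of EGFP+ libraries was not tested.

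Met and Hgf gave no call with UV. Met averaged 1010 ± 477 without UV and 671 ± 99.3 with UV in EGFP+ cells (SD, n = 2 each), a log2 difference of -0.51 ± 0.38 (95% interval -1.38 to 0.35, limma adjusted p = 0.669). In tdTomato+ cells it averaged 520 ± 94.6 and 520 ± 137 (n = 2 each), a difference of -0.01 ± 0.38 (95% interval -0.88 to 0.85, limma adjusted p = 1). The UV changes of Met in the 2 populations differed by -0.50 ± 0.54 (95% interval -1.73 to 0.72, limma adjusted p = 0.738). Hgf in tdTomato+ cells averaged 26.4 ± 15.2 without UV and 7.35 ± 6.46 with UV (n = 2 each), and both UV libraries lay under both others. The difference of -1.85 ± 0.99 (95% interval -4.11 to 0.41, limma adjusted p = 0.485) rests on 42 and 16 reads. In those libraries the sum of 6 fibroblast markers was 17429 and 14715 without UV and 8276 and 11772 with UV. Other sums were also lower in both UV libraries: 782 and 1099 against 105 and 1.85 for the 3 T and NK cell markers, 49651 and 64901 against 35366 and 19862 for the 5 suprabasal markers, and 79218 and 91767 against 50175 and 38084 for the 5 hair follicle markers. Some sums were not: dermal papilla markers were at 1076 and 1373 against 566 and 1984. Pericyte and smooth muscle markers were at 486 and 393 against 608 and 142, and endothelial markers at 187 and 34.3 against 701 and 81.6. The part of these cells in the Hgf values was not tested.

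The genes whose log2 levels followed each of the 4 most closely over the 8 libraries were taken from the 11396 genes that averaged 50 or more normalized reads in some group. Pearson's r is given as a description, since libraries share mice and the populations differ widely. For Kit they were Ptgds (r = 0.998), which encodes a prostaglandin D synthase, Arnt2 (0.997) and Syngr1 (0.997). Ptgds averaged 30005 and 37949 normalized reads in EGFP+ cells and 227 and 2456 in tdTomato+ cells, without and with UV. For Kitl they were Pqlc1, Scmh1 and Ak4 (each 0.994), and Ak4, a mitochondrial adenylate kinase, averaged 42.3 and 4.61 in EGFP+ cells and 248 and 329 in tdTomato+ cells. For Met they were Dolk (0.974), the dolichol kinase, Zfp687 (0.967) and Polg (0.955), the mitochondrial DNA polymerase. For Hgf they were Aadacl2 (0.993), Hpn (0.991) and Mall (0.989). Hpn encodes hepsin, a protease able to activate the Hgf precursor, and averaged 0.416 and 0 normalized reads in EGFP+ and 96.7 and 32.1 in tdTomato+ cells. The Kit-like genes had a high EGFP+ level and a higher tdTomato+ level with UV, as Kit did. Their choice by r over the same libraries fixed this in advance, so it is no separate result.

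**Figure D4:**
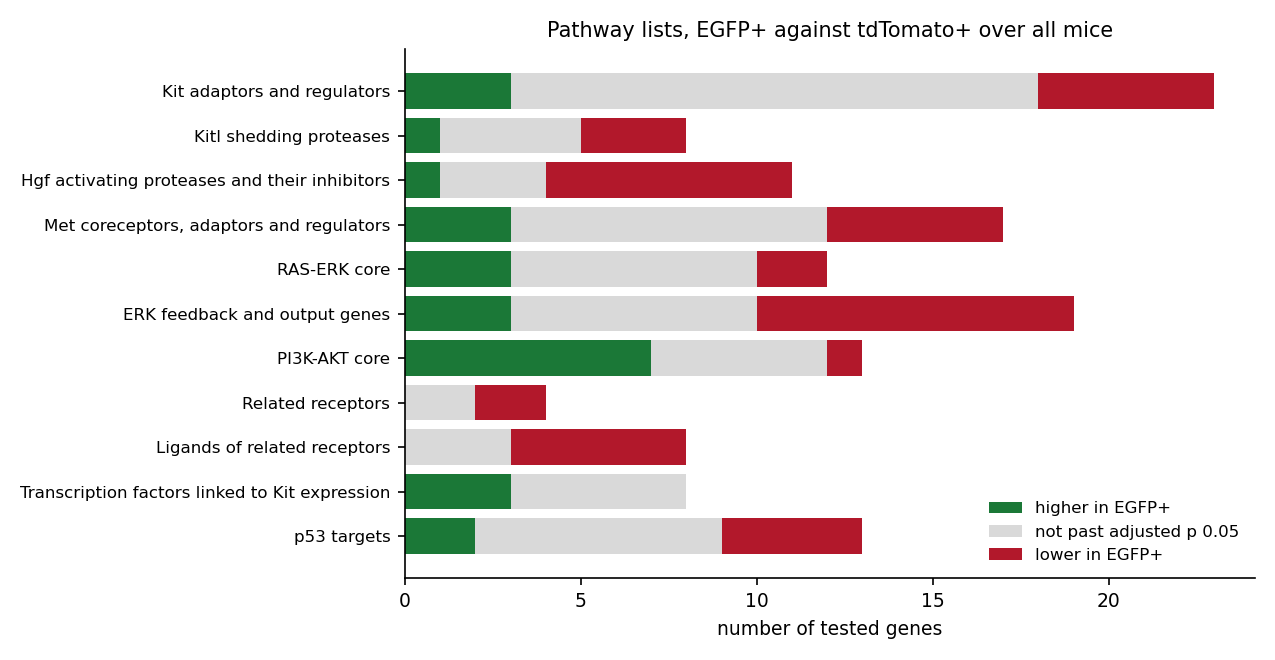
Number of tested genes (horizontal axis) in each of 11 lists that were higher in EGFP+ cells (green), lower (red) or not past an adjusted p of 0.05 (grey) over all mice. Of the 11 genes of the Hgf activation list 7 are lower, and of the 13 genes of the PI3K-AKT list 7 are higher. Over all genes tested 9.66% were higher and 19.2% lower.

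Genes that act around KIT and MET were counted by list in the comparison of EGFP+ with tdTomato+ cells over all mice. The median log2 difference of all genes tested was -0.33, against which the list medians are read, and each list count is to be read against 9.66% of all genes higher and 19.2% lower. KIT passes its signal through adaptors and phosphatases, and of 23 such genes tested 3 were higher and 5 lower (median 0.20), near the shares over all genes (9.66% and 19.2%). Grb10, an adaptor, was higher by 3.57 ± 0.50 (478 ± 102 against 45.9 ± 23.0 normalized reads, SD, n = 4 each, limma adjusted p = 0.00104). Fyn, a kinase of the SRC family, was higher by 1.63 ± 0.27 (limma adjusted p = 0.00242). Grb7, a relative of Grb10, stood at -6.81 ± 0.89 (2.61 ± 5.23 against 207 ± 32.4, limma adjusted p = 0.000693). Pik3ca, the third gene called higher, passed narrowly (0.87 ± 0.27, limma adjusted p = 0.0443) and was lost in 7 of the 8 fits that leave out 1 library. Ptpn6, a phosphatase known to dampen KIT, was lower by the fit (-4.78 ± 0.98, limma adjusted p = 0.00688), a call lost in 5 of those 8 fits. The 2 related adaptors Grb10 and Grb7 thus stood on opposite sides. Under quantile normalization the list gave 5 higher and 5 lower.

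Proteases that can release KIT ligand from the cell surface gave 1 higher and 3 lower of 8 (median -1.41, beside 9.66% and 19.2% of all genes), and 1 and 1 under quantile normalization. Adam10 was higher in EGFP+ cells by 0.98 ± 0.19 (2240 ± 164 against 1160 ± 275, limma adjusted p = 0.0052), and lost its call without mouse 1. Adam8 was at -6.00 ± 0.79 (limma adjusted p = 0.000747). The others called lower were Cma1 and Adam33, both with few reads. Cma1 had 1 read in EGFP+ and 76 in tdTomato+ libraries, a ratio of 85.4 with an exact interval of 14.9 to 3417 from counting alone, and its call was lost in edgeR and DESeq2. Adam33 had 0 reads in EGFP+ and 31 in tdTomato+ libraries, and was at least 11.6-fold lower. Like Cma1, it passed the filter only through tdTomato+ cells, so it could be called only as lower. Its call was lost in 6 of the 8 fits that leave out 1 library and in edgeR and DESeq2.

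Genes that activate the Hgf precursor, and their inhibitors, were mostly on the tdTomato+ side with Hgf, at 1 higher and 7 lower of 11 tested among 14 listed (median -5.31), beside 9.66% higher and 19.2% lower over all genes. Plat, tissue plasminogen activator, went the other way, at 10034 ± 4501 normalized reads in EGFP+ and 493 ± 231 in tdTomato+ cells (SD, n = 4 each), a log2 difference of 4.36 ± 0.21 (limma adjusted p = 3.55e-06). Spint2 and Spint1, which encode the inhibitors HAI-2 and HAI-1, stood at -8.31 ± 0.35 (19.4 ± 9.68 against 5830.4 ± 807) and -8.39 ± 0.63 (0.985 ± 0.888 against 639 ± 191), with limma adjusted p of 1.92e-06 and 3.76e-05. Plau, urokinase, had 0 reads in EGFP+ and 316 in tdTomato+ libraries and was at least 118-fold lower. Like Hgf, the genes Plau, Hpn and Tmprss13 passed the filter only through tdTomato+ cells and could be called only as lower. The same held for Hgfac and F12, which had 0 reads in EGFP+ libraries and were not called. The list count and median are to be read with that limit. Both activators and inhibitors of the activation step were therefore among the genes lower in EGFP+ cells: Tmprss13, St14 and Hpn encode proteases of that step. The calls of St14 and Hpn were lost without mouse 1. Tmprss11d, Plg and Serpina5 did not pass the filter on low values.

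Of 17 coreceptors, adaptors and regulators of MET, 3 were higher and 5 lower (median 0.16), where 9.66% and 19.2% of all genes were. Gab1, the docking protein of MET, was higher by 2.14 ± 0.18 (1710.1 ± 582.5 against 373 ± 63.8, SD, n = 4 each, limma adjusted p = 6.94e-05). Ptprj, a phosphatase that acts on MET, was higher by 3.89 ± 0.27 (709 ± 135 against 53.1 ± 30.7, limma adjusted p = 2.41e-05). Cd44, a coreceptor, was higher by 0.64 ± 0.12 (limma adjusted p = 0.00495), with the call lost when the moderation had no trend. The integrin genes Itga6 (-2.95 ± 0.20, limma adjusted p = 1.89e-05) and Itgb4 (-4.17 ± 0.40, 0.00014), which basal keratinocytes use for adhesion, were lower. The list gave 5 higher and 5 lower under quantile normalization.

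In the shared pathways, the RAS-ERK core gave 3 higher and 2 lower of 12 (median 0.25), where 9.66% of all genes were higher and 19.2% lower. Hras was at -2.20 ± 0.15 (limma adjusted p = 1.88e-05), Rps6ka1 at -2.69 ± 0.36 (0.000805) and Rps6ka3, another kinase activated by ERK, at 1.39 ± 0.20 (0.00129). The call of Map2k1 was lost in 6 of the 8 fits that leave out 1 library. Genes induced by ERK, many of them feedback inhibitors, gave 3 higher and 9 lower of 19 (median -1.19, and 0.00 under quantile normalization). Errfi1 stood at -3.61 ± 0.15 (459 ± 225 against 5104 ± 555, SD, n = 4 each, limma adjusted p = 1.75e-06) and Dusp6, the ERK phosphatase, at -2.03 ± 0.18 (2444 ± 549 against 9815 ± 818, 9.3e-05). Dusp4, another phosphatase of that family, was higher by 3.62 ± 0.49 (289 ± 132 against 21.03 ± 4.34, limma adjusted p = 0.000868), and Spred1 by 1.23 ± 0.21 (0.00285). Without mouse 1 the calls of Rps6ka1 and Spred1 were lost. Of 13 genes of the PI3K-AKT core 7 were higher and 1 lower (median 0.67). Phlpp1, which dephosphorylates AKT, was higher by 2.52 ± 0.32 (limma adjusted p = 0.000554). Pik3r1, the regulatory subunit, was the gene called lower (-1.16 ± 0.24, 0.00715), a call lost in 5 of the 8 fits.

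Of 4 receptors related to KIT and MET 2 were lower in EGFP+ cells and 0 higher (median -4.58), with Flt3 not tested, where 19.2% of all genes were lower and 9.66% higher. Mst1r, the relative of MET, had 1 read in EGFP+ and 444 in tdTomato+ libraries, a ratio of 499 with an exact 95% interval of 89.1 to 19749 from counting alone. Pdgfrb had 1 and 289 reads. Both receptors passed the filter on low values only through tdTomato+ cells, so they could be called only as lower. Of 8 ligands of these receptors 5 were lower and 0 higher (median -3.00, beside the same shares), and 4 were lower under quantile normalization. Of these 5, Pdgfb and Mst1 had 2 reads each in EGFP+ libraries. They too passed the filter only through tdTomato+ cells. Pdgfa was lower at -2.47 ± 0.28 (limma adjusted p = 0.000346), and Il34 at -6.71 ± 0.74 (0.00029).

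Of 8 transcription factors linked to Kit expression 3 were higher and 0 lower (median -0.51, and 0.22 under quantile normalization). Over all genes 9.66% were higher and 19.2% lower. They were the melanocyte factors Mitf (4.21 ± 0.30, limma adjusted p = 2.59e-05), Sox10 (5.81 ± 0.52, 9.73e-05) and Pax3 (5.82 ± 0.60, 0.000197). Sox10 is also among the 7 melanocyte markers. In UV against no UV, limma called 0 of 131 list genes in EGFP+ cells, beside 0.0166% of all genes. At an unadjusted p under 0.05 were 26 of the 131, beside 1875 of all 18070 genes tested. There edgeR called 5 (Bax, Ccnd1, Eda2r, Errfi1 and Phlda3) and DESeq2 7, those 5 with Foxo3 and Plat. In tdTomato+ cells limma called 2, Cma1 and the p53 target Ccng1, beside 0.559% of all genes, where edgeR called 4 and DESeq2 11. Cma1 passed the filter only through UV tdTomato+ cells, so it could be called only as higher with UV. Cma1 had a log2 difference of 5.16 ± 0.79 (limma adjusted p = 0.0374), lost in 6 of the 8 fits that leave out 1 library and in edgeR and DESeq2. For the difference between the UV changes limma called 0 of the 131, beside 0.00553% of all genes. Of the 131, 23 were at an unadjusted p under 0.05, beside 1814 of all 18070 genes tested. There edgeR called 1 (Plat) and DESeq2 7. The counts of edgeR and DESeq2 over all genes are given with the UV comparison and the processing results. Plat averaged 13825 ± 383 and 6242 ± 1770.1 normalized reads in EGFP+ cells without and with UV, and 302 ± 116 and 683 ± 39.6 in tdTomato+ cells (SD, n = 2 each).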

How the data were processed

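Polyadenylated RNA of sorted cells was sequenced with an unstranded kit, 8 libraries in all. The submitters' processing notes name mm10, DESeq2 1.14.1, TopHat2 2.0.12, Cufflinks 2.2.1 and FastQC. How reads were counted per gene, and on which annotation, was not given in the sources used here. Per the file headers, the authors deposited a signal per gene and library, and the values are reads over a library's size factor (0.701 to 1.20), and 195368 of 195368 gave whole reads within 0.01. The authors also deposited columns of log2 fold changes, a score and p-values, per the file headers, which name no tool or direction. The processing notes name DESeq2. The columns are taken here as EGFP+ against tdTomato+ cells, with Kit positive and Kitl negative. They are quoted only where named.

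Tests used limma 3.58.1 (R 4.3.3) on log2(value + 1), which understates changes of low genes. One fit held all 8 libraries with 4 group means and 4 residual degrees of freedom, moderated with a trend. The 18070 genes whose mean reached 1 in any group were tested, with Benjamini-Hochberg adjustment and a threshold of 0.05. An exact permutation test of 2 against 2 cannot go below p = 0.333. Only the comparison of EGFP+ with tdTomato+ over all mice was tested on simulated data. The alternatives were quantile normalization, rescaling, pseudocounts of 0.1 and 10, no or a stricter filter, only the libraries compared, mouse as a block, no trend, edgeR 4.0.16 and DESeq2 1.42.0 on the recovered reads, and leaving out each library or mouse 1. Bounds take 3 reads over a group where it had 0, and a gene with 1 to 3 reads has an exact 95% interval of the ratio.

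The 4 genes, the lists and the tests were chosen with earlier results of these data known. Always named were the 4 genes. From each list the called genes with the smallest p (up to 4) and those against its main direction could be named, and for each of the 4 genes the 3 with the highest r. A further gene named in a list was chosen after its values were seen. Some list members are counted and not reported by name here. EGFP+ and tdTomato+ libraries of a mouse are paired by the mouse number in the labels. Across genes, deviations from the group means of such a pair correlated at 0.0873 (mice 1 and 2) and 0.0562 (mice 3 and 4). Libraries of different mice, matched by replicate number across the UV arms, correlated at 0.0549 (EGFP+) and 0.0759 (tdTomato+). These values thus do not set pairs of the same mouse apart. Gene lengths are from GENCODE M21 basic (GRCm38), and promoters from RefSeq (GRCm38.p6), which matched 4 of 4 genes.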

Additional observations from a re-analysis of the deposited data

How the results depend on the processing

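With 2 mice per group, calls of UV effects rest on few libraries, and Hgf on 58 reads. Over all alternatives the direction and call of Kit between populations held over all mice and in each arm. Met between populations passed over all mice after rescaling without the 20 most abundant genes (0.89), and Kitl over all mice fell short without mouse 1 (-5.18). Kitl without UV fell short with a pseudocount of 0.1 (-3.49), no trend in the moderation (-3.48) and without mouse 1 (-2.95), and leaving out 1 library gave -3.83 to -3.13. Hgf without UV fell short in edgeR (-7.75) and without mouse 1 (-5.25), with -5.25 to -4.06 when leaving out 1 library. Kitl with UV fell short with only the libraries compared (-7.41) and without mouse 1 (-7.41), with -9.05 to -5.76 when leaving out 1 library, and Hgf with UV passed with a pseudocount of 0.1 (-5.88). Kitl with UV in EGFP+ cells passed in edgeR (-3.20) and DESeq2 (-3.20), and ran from -5.52 to -2.24 when leaving out 1 library. Kit with UV in tdTomato+ cells fell short with a pseudocount of 0.1 (3.22), only the libraries compared (3.18) and no trend (3.18), and ran from 2.33 to 4.03. Near-zero UV changes in tdTomato+ cells changed sign: Met was 0.0207 under quantile normalization, 0.00081 after rescaling and 0.0028 in DESeq2, with -0.28 to 0.26 when leaving out 1 library, and Kitl was -0.0053 under quantile normalization, with -0.13 to 0.23. For the difference of UV changes, Kit passed in edgeR (-2.60), DESeq2 (-2.59) and without mouse 1 (-3.64), from -3.68 to -1.98 when leaving out 1 library. Kitl passed there in DESeq2 (-3.24), from -5.57 to -2.28, and Met ran from -1.002 to 0.00040.

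The number of genes called moved more than the 4 genes did. Leaving out 1 library gave 3448 to 6402 over all mice, 1370 to 4300 without UV (2261 without mouse 1) and 958 to 4737 with UV (1074 with only the libraries compared, 1261 without mouse 1). For UV in EGFP+ cells it gave 0 to 1460, and the count was 16 under quantile normalization, 1 and 0 with pseudocounts of 0.1 and 10, 0 with only the libraries compared, 120 in edgeR, 355 in DESeq2, 24 with no trend and 613 without mouse 1. For UV in tdTomato+ cells it gave 0 to 1226, and the count was 218, 29 and 235, 0, 240 and 617 under the same first settings, and 1341 without mouse 1. For the difference of UV changes it gave 0 to 779, and the count was 14 under quantile normalization, 2 after rescaling, 0 with either pseudocount, no filter or no trend, 75 in edgeR, 286 in DESeq2 and 1328 without mouse 1. The cause of these shifts was not tested.

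Mouse entered as a block in 2 ways. Each mouse had its own term for the population comparisons and for the difference of UV changes. UV does not vary within a mouse, so UV within a population was fitted with a correlation within mouse (0.102). No call of the 4 genes changed. Over all mice Kit was at 5.63 (limma adjusted p = 2.28e-05), Met at 0.63 (0.0816), Kitl at -5.44 (0.000515) and Hgf had an adjusted p of 0.0106. With the correlation, Kit with UV in tdTomato+ cells was at 3.18 (limma adjusted p = 0.0359). The counts from these fits were 5221, 3288, 3190, 3, 101 and 1 for the 6 comparisons, each within 1.5 times the count of the main fit.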

Other observations

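The p53 targets, which include Pomc, the precursor of melanocyte-stimulating hormone, were counted as a further group. Over all mice 2 of 13 were higher in EGFP+ cells and 4 lower, where 9.66% and 19.2% of all genes were (median log2 difference -0.28, and 0.03 under quantile normalization). Phlda3 was lower at -2.19 ± 0.20 (limma adjusted p = 9.97e-05), and Bax, which promotes apoptosis, higher by 0.77 ± 0.12 (0.00183). Eda2r was at -3.60 ± 0.61 (limma adjusted p = 0.00277), called over all mice and not without mouse 1. Pomc was higher by 3.04 ± 0.82 (35.4 ± 12.3 against 4.87 ± 4.74 normalized reads, SD, n = 4 each, limma adjusted p = 0.0231), a call lost in 5 of the 8 fits that leave out 1 library.

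With UV, Phlda3 averaged 1055 ± 51.8 against 253 ± 68.4 normalized reads in EGFP+ cells and 3546 ± 915 against 1566 ± 199 in tdTomato+ cells (SD, n = 2 each), and neither difference was called by limma, while edgeR called the one in EGFP+ cells and DESeq2 called both. Ccng1 in tdTomato+ cells rose by 1.55 ± 0.26 log2 units (limma adjusted p = 0.0476), a call lost in all 8 of the fits that leave out 1 library, where the adjusted p reached 0.248, while edgeR and DESeq2 both called it with all libraries.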
